A study of Mus musculus with 6 samples.

Results

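Snai1 lies on mouse chromosome 2, and the genes described here are its neighbours: every measured gene whose midpoint lies within 10 Mb of the midpoint of Snai1 in the GRCm38.p6 gene table, apart from symbols starting with Slc and from Hnf4a, Ctsa, Ctsz and Snai1. The rule took 169 of the 19057 genes measured, and 10 further genes of the window were left out by symbol. The organoids were grown from mouse small intestine. Snai1 knockout samples (3 arrays) came from mice labelled Villin-Cre, Snai1fl/fl, and control samples (3 arrays) from mice labelled Villin-Cre. Both groups carry the Villin-Cre transgene and both were exposed to 0.5 µM tamoxifen. One label gives 24 hours of exposure up to harvest and another 24 hours of culture following it. The labels do not state the age, sex or genetic background of the mice, nor whether the arrays of a group stand for separate animals or cultures. The p-values therefore measure only how far these arrays spread, and that spread may be technical.

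Snai1 encodes a zinc-finger repressor that binds E-box sequences and is best known for its part in epithelial-mesenchymal transition. The Villin promoter is active in intestinal epithelium, so Cre made from it removes floxed DNA in that tissue. Genes that sit close together on a chromosome tend to be inherited together, so the DNA around a floxed allele passes through crosses along with it. Whether the DNA around Snai1 differs between the mice of the 2 groups was not tested. The comparison of knockout with control arrays as a function of distance shows how the neighbours of the targeted gene read in the same data.

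The arrays gave 45281 values each, on a log scale taken as log2, and all 6 had the same distribution. Arrays correlated at r = 0.994 to 0.997. The scale starts at 7.71 and the median of all probes was 7.87, so dim genes are compressed and their differences understated. Genes above 8.27, the upper quartile of all probes, are called bright below. Of 12 intestinal epithelial markers 10 were bright, among them villin (Vil1), Cdh1 and Krt8, while Epcam read 8.12 and Fabp2 7.81. None of 7 mesenchymal, 4 immune or 3 endothelial markers was bright, and no marker of any list passed the test between the groups. An unadjusted p under 0.05 (limma) was reached by 3 of the 12 epithelial markers, beside 14.9% of all bright genes. Olfm4 was higher in the knockout by 0.45 (log2) and Cdx2 by 0.10, and Lyz1 differed by -0.10. Snai1 itself read 7.91, 7.86 and 7.96 on knockout arrays and 7.87, 7.93 and 7.94 on control arrays with its brighter probe (exact permutation p = 0.9, two-sided, the smallest possible being 0.1). Its other probe gave an exact permutation p = 0.6. At this level a loss was not detectable and neither probe checks the labels. Whether they match the floxed exons was not analysed here.

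Among the 169 neighbours, 2 passed the test over all genes (limma, Benjamini-Hochberg adjusted p under 0.05), and both fell in the knockout: Serinc3, 3.91 Mb before Snai1, and Atp5e, 6.92 Mb after it. Over all genes tested 0.131% were called in either direction, with 0.0367% called higher and 0.0945% lower. With the replicate number as a block the count among the neighbours was 1, Serinc3, beside 0.0472% of all genes. The median absolute log2 difference over the 169 genes was 0.028, beside 0.026 over all genes tested. The signed median was -0.01 on the log2 scale, with the mean of 77 genes higher and of 92 lower in the knockout, and over all genes 49.3% were higher. Of bright neighbours 33 of 62 had a higher mean, beside 51.4% of all bright genes. In bulk RNA, fewer cells of a type and less RNA per cell cannot be told apart.

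The 2 genes that passed are shown with the start of their transcripts, since Snai1 is known to bind the E-box CAGGTG, which reads CACCTG on the other strand. The windows run from 250 bases before to 50 bases after the start of transcription in RefSeq, build GRCm38.p6, 5′ to 3′ along the gene, and capitals mark each match to CAGGTG or CACCTG. Serinc3 lies on the minus strand at chr2:163645094-163645393, with no match, and Atp5e on the minus strand at chr2:174464052-174464351, with 2 matches.
Serinc3: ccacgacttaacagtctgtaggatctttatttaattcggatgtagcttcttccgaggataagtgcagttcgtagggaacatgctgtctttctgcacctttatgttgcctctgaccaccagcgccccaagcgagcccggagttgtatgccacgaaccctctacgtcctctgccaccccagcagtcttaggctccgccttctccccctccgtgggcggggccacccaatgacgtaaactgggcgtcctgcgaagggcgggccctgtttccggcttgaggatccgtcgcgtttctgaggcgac
Atp5e: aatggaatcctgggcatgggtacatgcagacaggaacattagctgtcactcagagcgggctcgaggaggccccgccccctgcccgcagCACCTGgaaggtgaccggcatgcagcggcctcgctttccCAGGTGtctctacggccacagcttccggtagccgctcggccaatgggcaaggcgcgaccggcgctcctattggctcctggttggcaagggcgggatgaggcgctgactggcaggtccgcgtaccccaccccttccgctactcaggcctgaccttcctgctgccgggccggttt

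In the Atp5e window the matches begin 162 and 123 bases before the start. The RefSeq table held windows for 132 of the 169 neighbours, and 34 of these genes, or 25.8%, had at least 1 match, beside 22.6% of the 27025 genes in the table. Counted by window, 39 of 172 windows of the neighbours had a match, or 22.7%, beside 20.2% of all 32851. Of the 23 neighbours with a window whose knockout and control values did not overlap, 5 had a match. A match to these 6 letters is a description of the sequence and says nothing of binding in these cells.

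Serinc3 encodes a membrane protein of the serine incorporator family. It read 9.98, 9.99 and 9.80 on knockout arrays and 11.53, 11.41 and 11.31 on control arrays. Every knockout array was below every control array, and the gap between the groups was larger than the spread within either. The log2 difference was -1.49 ± 0.08 (SE, n = 3 each; limma adjusted p = 0.0062, and 0.0036 with the replicate block), with a 95% interval of -1.68 to -1.30, so the knockout level was 35.5% of control on the deposited scale. Serinc3 was the neighbour with the largest difference and is measured by 1 probe, so no further probe of it bears on the value.

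Atp5e encodes the epsilon subunit of the mitochondrial ATP synthase. It read 8.61, 8.42 and 8.54 on knockout arrays and 9.08, 9.11 and 9.10 on control arrays, again without overlap and with control arrays close together. The difference was -0.58 ± 0.05 (SE; limma adjusted p = 0.026), which is 67.1% of control, and Atp5e too has 1 probe. The call was lost with the replicate block (adjusted p = 0.072) and when knockout replicate 3 or any one control array was left out (adjusted p = 0.12 to 0.19).

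The genes around Serinc3 and Atp5e are given next. Ttpal, which encodes a protein related to the alpha-tocopherol transfer protein, has its midpoint 23.6 kb before that of Serinc3. By its brightest probe it read 9.04, 9.18 and 9.23 on knockout arrays and 8.89, 8.87 and 8.66 on control arrays, a difference of 0.34 ± 0.08 (SE) in the opposite direction to Serinc3 (limma adjusted p = 0.34). A further probe of Ttpal, ILMN_2722769, differed by -0.48 ± 0.03 (SE; limma adjusted p = 0.0086 over all named probes), the direction of Serinc3. The direction of Ttpal is therefore uncertain, as set out below. On the other side of Serinc3 the dim 0610039K10Rik differed by 0.02. Pkig, an inhibitor of protein kinase A, and Ada, adenosine deaminase, come next, and the brightest probe of each differed by -0.22 with overlapping groups.

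Further probes of both were lower on every knockout array than on any control array. A dim Pkig probe, ILMN_3090731, read 7.82, 7.86 and 7.85 on knockout arrays and 8.15, 8.32 and 8.29 on control arrays, a difference of -0.41 ± 0.05 (SE; limma adjusted p = 0.087 over all named probes). Another, ILMN_1253384, differed by -0.27 ± 0.03 (SE; limma adjusted p = 0.063), and the fourth by 0.01 with overlapping groups. The second probe of Ada, also dim, differed by -0.21 ± 0.06 (SE; limma adjusted p = 0.59). Around Atp5e, the dim beta-tubulin gene Tubb1 differed by -0.04, the mitochondrial lipid transfer gene Prelid3b by -0.08 and the transcription elongation factor gene Nelfcd by 0.11. Of these 6 genes Nelfcd had groups that did not overlap by its brightest probe, and none passed the test. Ctsz, left out by symbol, also lies close to Atp5e, at 29.3 kb. It differed by -0.40 with groups that did not overlap (limma adjusted p = 0.24).

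**Figure D1:**
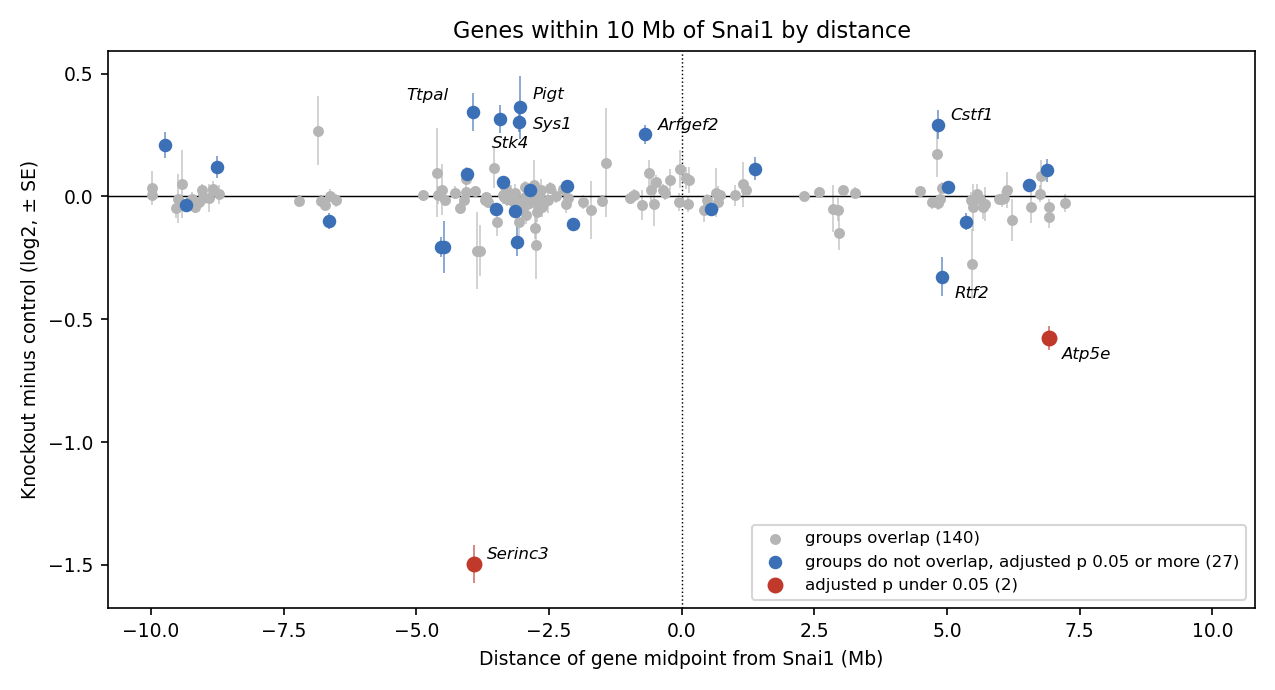
Log2 difference, knockout minus control (± SE), of each of the 169 genes against the distance of its midpoint from Snai1 in Mb. Red points are the 2 genes past an adjusted p of 0.05, blue points the 27 others whose groups do not overlap and grey points the 140 whose groups overlap. Serinc3 at -1.49 and Atp5e at -0.58 stand away from the rest, and within 2 Mb of Snai1 no point lies beyond Arfgef2 at 0.25.

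A wider set of neighbours had 3 knockout values all on one side of the 3 control values. This held for 29 of 169 genes, or 17.2%, beside 12% of all genes tested. It held for 16 that were higher in the knockout, beside 6.2% of all genes, and for 13 that were lower, beside 5.85%. At an unadjusted p under 0.05 there were 18 neighbours, 9 higher and 9 lower, or 10.7%, beside 7.22% of all genes (3.88% higher and 3.34% lower). Among the 62 bright neighbours the groups did not overlap for 16, or 25.8%, beside 14.9% of all bright genes, and among the 107 dim neighbours for 13, beside 10.4% of all dim genes. A log2 difference over 0.2 in size, a limit chosen after the values were seen, was reached by 16 neighbours, or 9.47%, beside 3.09% of all genes tested. There were 8 in each direction, beside 1.3% of all genes higher and 1.78% lower. These are counts beside a background and carry no test, since the genes share arrays and were chosen with earlier results known.

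No neighbour that was higher in the knockout passed the test. The 12 largest of these differences with groups that did not overlap include Ttpal and Nelfcd, given above. Sys1, a Golgi protein that anchors a small GTPase, read 9.34, 9.20 and 9.27 on knockout arrays and 8.98, 8.99 and 8.93 on control arrays. The difference was 0.30 ± 0.04 (SE; limma adjusted p = 0.12), and the arrays of each group lay close together. Arfgef2, an exchange factor for Arf GTPases that also serves the Golgi, read 9.17, 9.12 and 9.04 on knockout arrays and 8.89, 8.82 and 8.86 on control arrays (difference 0.25 ± 0.04, SE; limma adjusted p = 0.16). A further bright probe of Arfgef2, at 8.56, differed by 0.08 ± 0.08 (SE) with overlapping groups.

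Stk4, a kinase of the Hippo pathway, read 10.84, 10.92 and 10.94 on knockout arrays and 10.66, 10.47 and 10.63 on control arrays, a difference of 0.32 ± 0.06 (SE). Pigt, a subunit of the enzyme that attaches GPI anchors, differed by 0.36 ± 0.13 (SE), the largest positive difference among the neighbours, with 11.86, 11.98 and 12.15 on knockout arrays and 11.69, 11.39 and 11.82 on control arrays. On the far side of Snai1, Cstf1, a subunit of the cleavage stimulation factor of polyadenylation, read 10.73, 10.86 and 10.85 on knockout arrays and 10.52, 10.61 and 10.44 on control arrays. All 3 had groups that did not overlap and missed the threshold (limma adjusted p = 0.24 for Stk4, 0.61 for Pigt and 0.28 for Cstf1). Smaller differences of the same kind were those of Ctnnbl1, a spliceosome-associated protein, at 0.21, the mitotic spindle gene Fam83d at 0.12, the zinc-finger gene Zfp64 at 0.11, and the dim genes R3hdml at 0.09 and Kcns1, a potassium channel subunit, at 0.06.

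Of uncalled genes that were lower in the knockout, Rtf2, named for replication termination, had the largest difference. It read 9.96, 10.15 and 9.85 on knockout arrays and 10.27, 10.39 and 10.29 on control arrays (-0.33 ± 0.08, SE; limma adjusted p = 0.36). Sgk2, a kinase related to the glucocorticoid-regulated kinase Sgk1, differed by -0.21 ± 0.04 (SE; limma adjusted p = 0.28), with 8.0 ± 0.04 in knockout and 8.20 ± 0.06 in control (SD, n = 3 each). Its adjusted p was 0.044 with an intensity trend and robust variances in limma, a setting that called 0.373% of all genes. Mybl2, a cell cycle transcription factor, differed by -0.21 ± 0.11 (SE; limma adjusted p = 0.79). Its groups were barely apart, and control replicate 2 stood highest at 9.11. Further probes of Mybl2 differed by 0.01 and -0.04 with overlapping groups. The heparan sulphate proteoglycan gene Sdc4 differed by -0.18. Trp53rka, a kinase subunit whose probes may also see its close copy Trp53rkb, differed by -0.11, the growth factor gene Bmp7 by -0.10 and the phosphatidate phosphatase gene Lpin3 by -0.10. Sgk2, Trp53rka and Lpin3 are dim. Of the other dim genes, Rbpjl differed by -0.06, the polarity gene Pard6b by -0.05 and Pabpc1l by -0.05.

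**Figure D2:**
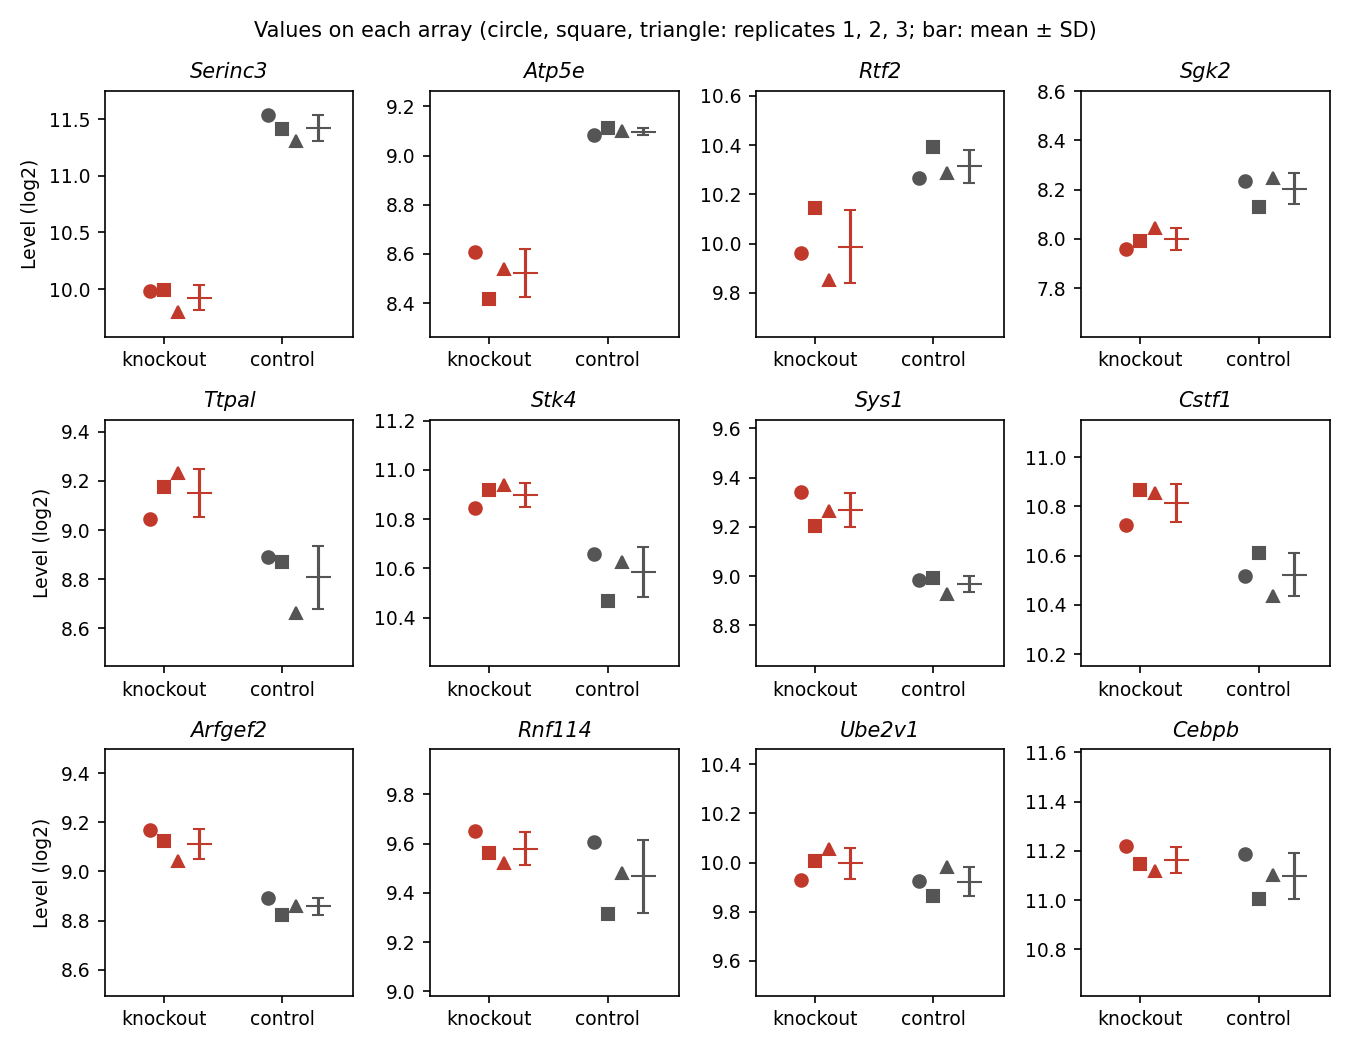
Log2 level on each of the 3 knockout (left) and 3 control (right) arrays for 12 genes, with the mean and SD beside the points. Each panel has its own vertical range. The groups are apart for Serinc3, Atp5e, Rtf2, Sgk2, Ttpal, Stk4, Sys1, Cstf1 and Arfgef2 and overlap for Rnf114, Ube2v1 and Cebpb, which lie within 0.15 Mb of Snai1.

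Of the 6 measured neighbours nearest to Snai1 on each side none passed. Among these 12, Pard6b at -0.05 was the 1 gene with groups that did not overlap, beside 12% of all genes tested. Their median absolute difference was 0.054, beside 0.026 over all genes. Before Snai1 the genes were Rnf114, a ubiquitin ligase, at 0.11, Spata2 at -0.02, the glycosyltransferase gene B4galt5 at 0.07, the prostacyclin synthase gene Ptgis at 0.01, the non-coding 1110018N20Rik at 0.03 and Znfx1, a helicase-like protein, at 0.06. After Snai1 they were Ube2v1, a ubiquitin-conjugating enzyme variant, at 0.07, Tmem189 at -0.03, Cebpb at 0.07, the tyrosine phosphatase gene Ptpn1 at -0.06, Ripor3 at -0.02 and Pard6b. The 95% intervals of these 12 differences ran from -0.18 at the lowest, for Ptpn1, to 0.31 at the highest, for Rnf114.

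Rnf114, 36.1 kb from Snai1 by midpoint, read 9.65, 9.56 and 9.52 on knockout arrays and 9.61, 9.31 and 9.48 on control arrays. Ube2v1, 79.3 kb away, read 9.93, 10.01 and 10.05 on knockout arrays and 9.92, 9.86 and 9.98 on control arrays. Cebpb, a leucine zipper transcription factor, read 11.22, 11.15 and 11.12 on knockout arrays and 11.19, 11.00 and 11.10 on control arrays. In each of the 3 the groups overlapped. Of the 12 nearest genes, 5 were higher in the knockout in 3 of 3 pairs of the same replicate number, beside 15.7% of all genes, and 2 were lower in 3 of 3 pairs, beside 15.2%.

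The size of the difference showed little relation to distance. Over the 169 genes the absolute log2 difference and the absolute distance gave a Spearman rho of 0.016 and a Pearson r of 0.022, as a description across genes that share arrays. Over the 62 bright genes rho was 0.080. With the level, the absolute difference gave a rho of 0.65 over the neighbours and 0.57 over all genes. Within 2 Mb of Snai1 the groups did not overlap for 3 of 31 genes, at 2 to 4 Mb for 12 of 69, at 4 to 6 Mb for 7 of 31, at 6 to 8 Mb for 4 of 20 and at 8 to 10 Mb for 3 of 18. These shares are 9.68%, 17.4%, 22.6%, 20% and 16.7%, beside 12% of all genes tested. They rest on the brightest probe of each gene. Within 2 Mb, further probes of Mocs3 (-0.15), Zmynd8 (-0.20) and Sulf2 (0.06) also had groups that did not overlap. Further probes in the other distance classes did so too, and these were not counted by distance. The median absolute difference in these 5 distance classes was 0.031, 0.027, 0.031, 0.040 and 0.025. Inside the window no gene was measured more than 7.23 Mb after Snai1.

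Differences of this size were also found past the edge of the window. Just inside its edge, Nnat and Blcap, both 9.98 Mb before Snai1, differed by 0.01 and 0.03. Just outside, the kinase gene Src differed by 0.00 and Manbal by -0.73 (limma adjusted p = 0.19). Between 10 and 20 Mb before Snai1, 2 of 154 genes were called, both lower: Pdrg1 at -0.98 ± 0.04 and Ahcy at -0.89 ± 0.06 (SE; limma adjusted p = 0.0031 and 0.0093). With the replicate block Ahcy had an adjusted p of 0.051. In that stretch 13 genes, or 8.44%, differed by over 0.2, and between 10 and 20 Mb after Snai1 it was 3 of 65. A similar share stood 40 to 50 Mb before Snai1, where 13 of 142 genes differed by over 0.2 and none was called. Chromosome 2 outside the window had 45 of 1454 genes over 0.2, or 3.09%, beside the 3.09% of all genes tested.

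**Figure D3:**
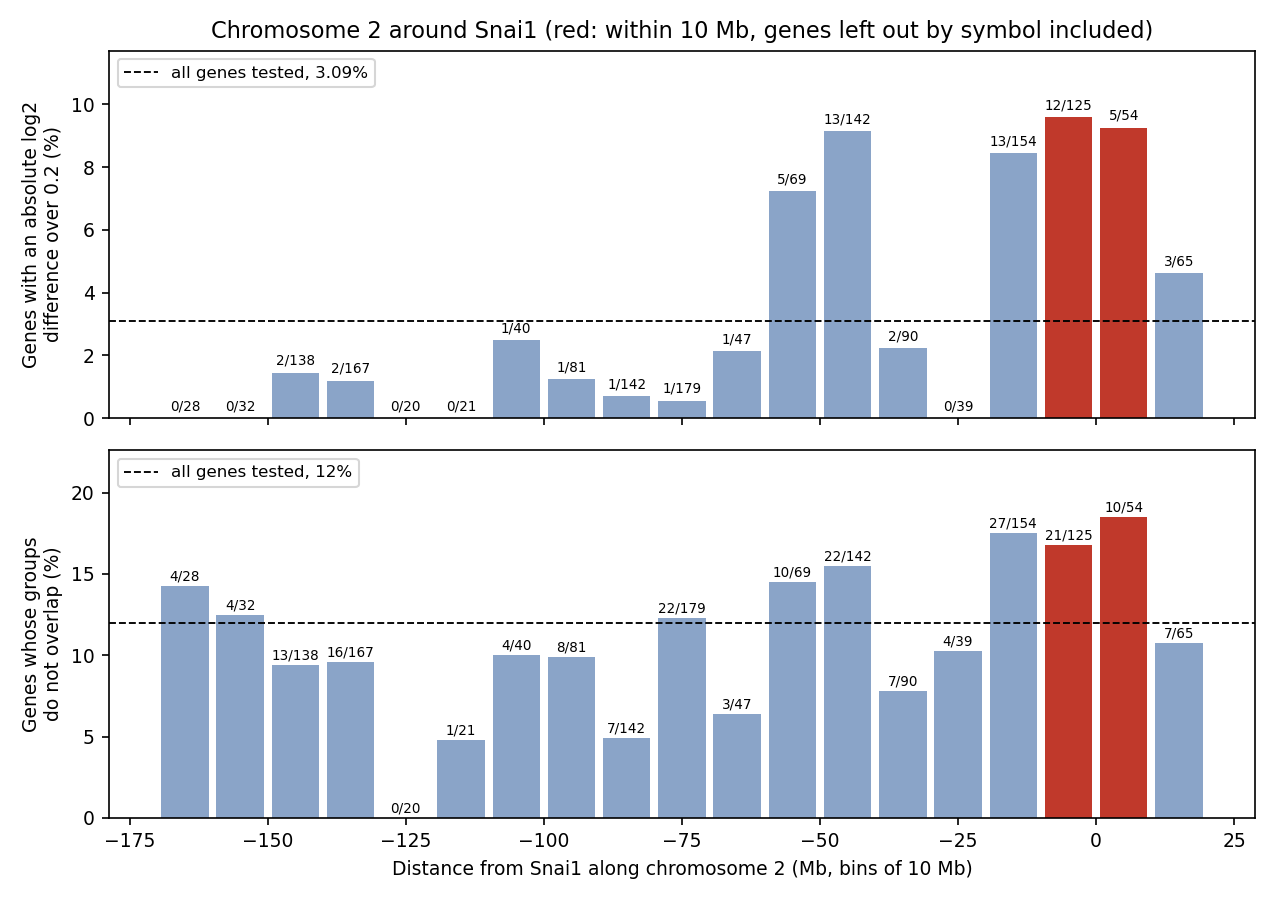
Share of genes along chromosome 2, in bins of 10 Mb by distance from Snai1, with an absolute log2 difference over 0.2 (top) and with groups that do not overlap (bottom), each with its count. Dashed lines give the share over all genes tested, 3.09% and 12%. The bins within 10 Mb of Snai1 (red, with the genes left out by symbol included) and the bin before them lie above the line in both panels, as do the bins 40 to 60 Mb before Snai1.

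Role lists covered 118 of the 169 genes. Their names are loose. The list of membrane traffic and mitochondria also holds Ube2v1, and that of splicing, RNA and translation holds the ubiquitin ligase gene Rnf114. The mitochondrial gene Atp5e is counted under metabolism. The whey acidic protein and seminal inhibitor cluster, secreted protease inhibitors and seminal proteins, gave 21 measured members, none bright and none called. Their levels ran from 7.78 to 8.0, and their median difference was -0.002. Its lowest p-values belonged to Wfdc8 (-0.08), Eppin (0.04) and Wfdc15b (0.04). All 21 lie 2.80 to 3.36 Mb before Snai1. At their low levels the scale is compressed.

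The list of membrane traffic and mitochondria was brighter, with 14 of 17 members above the upper quartile. It held Serinc3, the 1 member called, with Sys1 and Arfgef2 next. Its median difference was 0.03, 9 members being higher and 8 lower. In the metabolic list 1 of 14 members was called, Atp5e, and the median was 0.01. At an unadjusted p under 0.05, which 7.22% of all genes reached, there were 4 of 14 metabolic genes, 3 of 17 in membrane traffic and mitochondria, 2 of 13 in splicing, RNA and translation, 2 of 14 kinases, phosphatases and receptors, and 2 of 13 secreted and matrix genes. The other lists had 0. The lists differ in level, and of all bright genes 14.9% reached this p. Among bright members it was reached by 3 of 7 metabolic genes and 3 of 14 in membrane traffic and mitochondria. In splicing, RNA and translation it was 2 of 12, in kinases, phosphatases and receptors 1 of 5, and in secreted and matrix genes 2 of 3. The list of splicing, RNA and translation genes had 8 of 13 members higher, a median of 0.03, and Cstf1, Ctnnbl1 and Nelfcd as the members of lowest p. None of its members passed.

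Of 16 DNA-binding regulators none passed, with 10 higher, 6 lower and a median of 0.01. Zfp64, Rbpjl and Mybl2 had the lowest p. Kinases, phosphatases and receptors split 7 to 7, with Stk4 and Sgk2 in opposite directions and the 14-3-3 protein gene Ywhab at 0.12. Secreted and matrix genes were lower in 9 of 13 with a median of -0.02, Sdc4, Bmp7 and Cbln4 (0.02) having the lowest p. Of 7 chromatin genes 5 were lower. There Top1, the topoisomerase gene, differed by 0.27 ± 0.14 (SE), with 9.71, 9.65 and 9.70 on knockout arrays and 9.65, 9.09 and 9.51 on control arrays, which spread widely. Ncoa3, a nuclear receptor coactivator, and Chd6, a chromatin remodeller, each differed by -0.02.

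Imprinted genes, which in some tissues or for some transcripts are read from one parental copy, lie with their neighbours on both sides of Snai1. Whether Gnas, Blcap or Nnat is read from one copy in these organoids was not tested. Gnas, which encodes the stimulatory G protein alpha subunit, has 10 probes. Its brightest read 10.50, 10.64 and 10.61 on knockout arrays and 10.56, 10.38 and 10.57 on control arrays, and its 3 bright probes differed by 0.08, 0.09 and 0.15 with overlapping groups. Of its dim probes 2 had groups that did not overlap, at -0.04 and -0.03. Blcap differed by 0.03 and the dim Nnat by 0.01, and both changed sign when a single array was left out. None of the 3 passed the test.

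**Figure D4:**
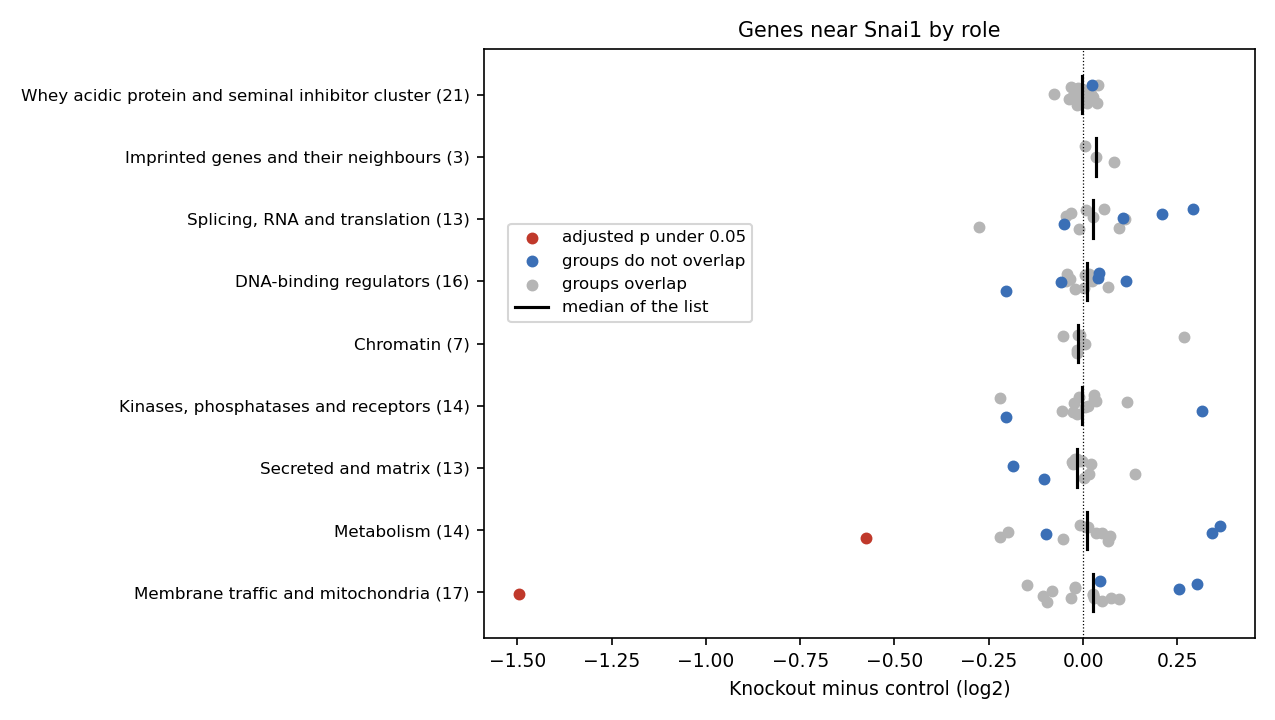
Log2 difference, knockout minus control, of the genes of each role list (number measured in brackets), with the median of each list as a bar. Blue points are other genes whose groups do not overlap and grey points those that overlap. Medians lie between -0.02 and 0.03, and the 2 called genes (red) are Serinc3 in the membrane traffic list and Atp5e in the metabolic list.

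Several neighbours are read by more than 1 probe, and the probes of a gene could differ. Of the 169 genes 84 have several probes, and 24 have at least 2 bright ones. In 18 of these 24 all bright probes had the same sign. Fitted on every named probe, 3 of the 313 probes of neighbours passed (0.106% of all named probes did): those of Serinc3 and Atp5e and a further probe of Ttpal.

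Ttpal was the clearest case. Its 4 probes, from the brightest down, differed by 0.34, 0.23, -0.48 and 0.09. The third, ILMN_2722769, read 8.11, 8.13 and 8.16 on knockout arrays and 8.65, 8.62 and 8.56 on control arrays, with an SE of 0.03 and an adjusted p of 0.0086 (limma over all named probes). The second, whose groups also did not overlap, read 8.43, 8.69 and 8.62 on knockout arrays and 8.31, 8.35 and 8.39 on control arrays. So one probe of the gene was lower in the knockout on every array while its 2 brightest probes were higher on every array. The gene's direction is therefore uncertain, and what distinguishes the probes was not tested.

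Rtf2 also rested on a single probe. Its brightest differed by -0.33, and the other 3 by 0.07, 0.02 and 0.02, including bright probes at 9.72 and 9.40 whose groups overlapped. For Sgk2, dim at 8.10 by its brightest probe, the 2 further probes at 7.91 and 7.84 differed by -0.00 and 0.01. The second probe of Ctnnbl1, dim at 7.88, differed by -0.07 against 0.21 for the brightest. By contrast, the 2 bright probes of Pigt differed by 0.36 and 0.22, the 3 brightest of Zfp64 by 0.11, 0.10 and 0.10, and the 3 probes of Trp53rka by -0.11, -0.13 and -0.04.

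**Figure D5:**
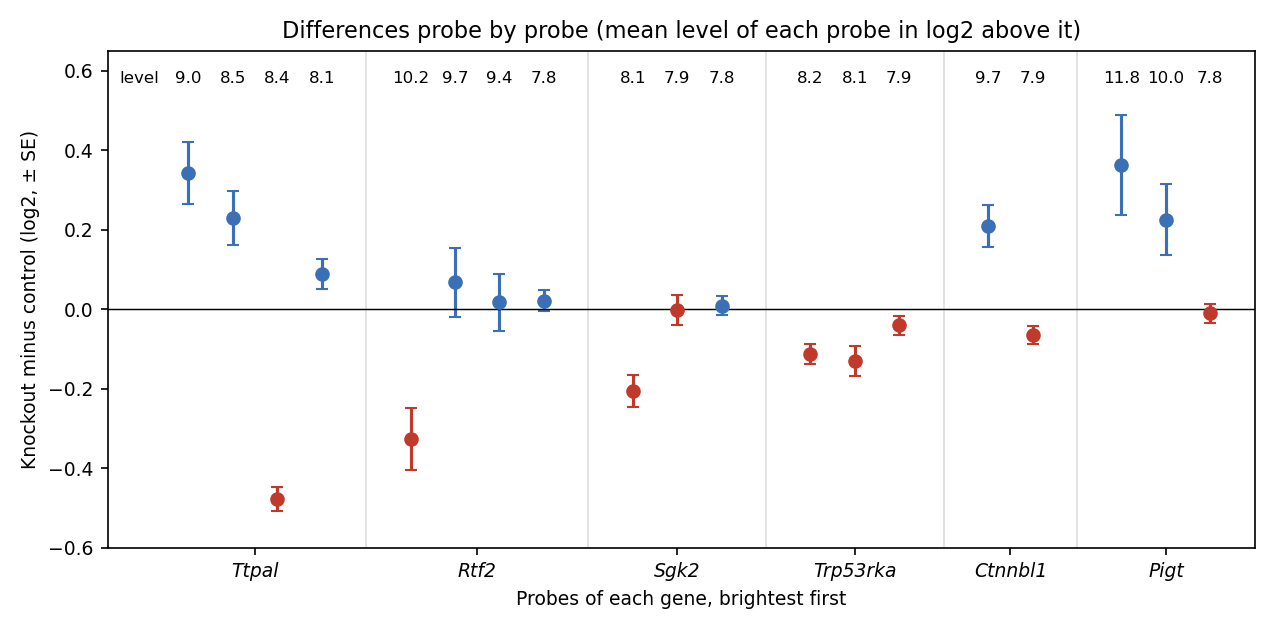
Log2 difference, knockout minus control (± SE), of each probe of 6 genes, brightest first, with the mean level of the probe printed at the top. Red points are below 0 and blue points above. Probes of Ttpal lie on both sides of 0, from 0.34 to -0.48, and of the 4 probes of Rtf2 only the brightest is well below 0.

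Consecutive genes along the chromosome were also compared in sign. Of 168 pairs of consecutive neighbours 81, or 48.2%, had the same sign. In 7 such pairs both genes had groups that did not overlap, and 3 of these 7 had the same sign. These 7 pairs include Ttpal and Rtf2, whose probes differ in sign. The share of pairs with the same sign was not computed for other genes. Cstf1 and Rtf2 are 78.7 kb apart by midpoint and differed by 0.29 and -0.33, and Cass4 and Gcnt7 close by differed by -0.01 and 0.04. Of the genes left out by symbol, the protease gene Ctsz lies 29.3 kb from Atp5e and was lower in the knockout, with 9.58 ± 0.14 in knockout and 9.98 ± 0.02 in control (SD, n = 3 each; limma adjusted p = 0.24) and groups that did not overlap. Hnf4a, an intestinal transcription factor 94.4 kb from Serinc3, differed by 0.17 with overlapping groups.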

How the data were processed

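RNA of 6 organoid samples, 3 Snai1 knockout and 3 control, was read on Illumina mouse arrays as biotinylated cRNA, per the labels' protocols. The deposited table holds log values taken as log2, since the base is not stated. The sorted values of the 6 arrays are nearly equal, as after quantile normalization by the authors. For background correction, software and build, nothing is stated in the labels. Of 45281 probes, 34885 named 1 gene in the platform annotation, 18 several and 10378 none, and 34807 were matched to RefSeq (GRCm38.p6) by gene number. The probe with the highest mean over the 6 arrays stood for its gene, which gave 19057 genes. Distances run between gene midpoints. The 2 groups were compared in limma 3.58.1 (R 4.3.3), with eBayes and Benjamini-Hochberg adjustment over all genes, after the steps were tested on simulated data. No p-value was made for a list. The number of arrays limits the precision.

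Genes were named by rule: those past an adjusted p of 0.05; among genes whose groups do not overlap, the 12 largest differences each way; the 6 nearest on each side of Snai1; the 3 of lowest p in each role list; and genes whose probes disagree. Genes at the window's edge are named for their position. Pkig, Ada, 0610039K10Rik, Tubb1, Prelid3b, Cass4, Gcnt7, Mocs3, Zmynd8, Sulf2, Ctsz and Hnf4a were chosen after their values were seen. The members and lists were chosen with earlier results of these data known. Same-numbered knockout and control arrays deviated together (r = 0.35, 0.33 and 0.46), although the labels do not say what a number shares. The main test left the replicate number out, so its p-values, SE and intervals are unpaired. Only the replicate block and the counts of pairs used the number. The replicate block, other normalizations, probe choices, variance models, array weights and leaving out each array were tried. Promoter windows are from RefSeq.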

Additional observations from a re-analysis of the deposited data

Results flagged for a closer look

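A further probe of Ttpal, ILMN_2722769, is not the brightest of its gene and so stands outside the comparison of genes. Its log2 difference was -0.48 ± 0.03 (SE; limma adjusted p = 0.0086 over all named probes), with 8.13 ± 0.03 in knockout and 8.61 ± 0.05 in control (SD, n = 3 each). It drew attention as a signal in values the comparison did not use, and it runs opposite to the 2 brighter probes of Ttpal.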

How the results depend on the processing

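With the replicate block, which uses the pairing of same-numbered arrays, 1 neighbour was called in place of 2. Leaving out 1 array gave 1 to 2 called neighbours and 41 to 52 with groups that do not overlap (fewer arrays make this easier). That was 24.3% to 30.8% of the neighbours, beside 19.9% to 24.4% of all genes. The median absolute difference was then 0.0295 to 0.0329 and the signed median -0.0071 to -0.0036. Among bright genes alone, 16 did not overlap, or 25.8%, beside 14.9% of all bright genes. There the median absolute difference was 0.0896 and the signed median 0.0200, which is a sign opposite to the -0.0074 of all members. The signed median was -0.0030 with array weights and -0.0013 with every probe fitted, where 45 genes had a probe that did not overlap. Counted by probe, the groups did not overlap for 53 of 313, or 16.9%, beside 11.5% of all named probes. Within 5 Mb of Snai1, 2 were called with trend and robust variances and 2 with every probe fitted, in place of 1. The gene added was Sgk2 in the former, a setting that called 0.373% of all genes. In the latter it was Ttpal, by its probe ILMN_2722769. Why these results moved was not tested. Of 623 values for 46 named genes, 607 kept their side of the threshold and, where not called, moved by less than the SD within the groups. Another 10 moved by more than that, 5 lost the threshold (all Atp5e) and 1 gained it (Sgk2). For values not called, this count took no account of sign. Signs changed for 6 named genes when 1 array was left out and for Chd6 with the mean of its probes. No gene with groups that do not overlap was among them. For such a gene, leaving out an array cannot change the sign, so that part says nothing of how firm it is. Signal over background limits the dim genes.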
